A study of Mus musculus with 18 samples.

Results

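The transcripts of 6 mouse Fc receptor genes were followed in bone marrow-derived macrophages (BMDMs) cocultured with renal tubular epithelial cells (TECs). The members were the rows of the deposited expression table whose symbol was Fcgr1, Fcgr2b, Fcgr3, Fcgr4, Fcer1g or Fcgrt, which are 6 of 25926 genes. Marrow of C57BL/6 mice (C57BL/6J in the growth protocol) was cultured for 7 days in RPMI medium with 50 ng/mL M-CSF, the growth factor that turns marrow cells into macrophages, and 10% FBS, with fresh medium on day 5. These macrophages were then placed in Transwell inserts with 0.4 μm pores over TECs from wild-type mouse kidney, and 18 samples were sequenced, 6 in each of 3 groups. NC stands for BMDMs given PBS over TECs without crystals. COM stands for BMDMs given PBS over TECs that had met calcium oxalate monohydrate (COM) crystals, at 100 μg/mL, for 24 h. COM+Met stands for BMDMs given 5 mM Met for 24 h over TECs treated with crystals in the same way, where Met is an abbreviation that the labels do not spell out. All cells of the 3 groups were thus in coculture, and no sample of BMDMs without TECs was analysed here. Nothing in the labels ties the 6 samples of a group to separate mice or cultures, so the p-values measure no more than the spread of the samples at hand, which may be technical.

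Fc receptors bind the constant part of antibodies and so let a macrophage sense particles or complexes coated with IgG. In mice the activating receptors Fcgr1, Fcgr3 and Fcgr4 reach the surface and signal together with Fcer1g, the common FcR gamma chain, whose activation motif (ITAM) is phosphorylated by Src family kinases and then recruits Syk. Fcgr2b is the inhibitory receptor of the family: its own tail carries an inhibitory motif (ITIM) that recruits the phosphatase SHIP-1, and the balance between Fcgr2b and the activating receptors sets the threshold for phagocytosis and cytokine release. Fcgrt, the neonatal Fc receptor, works inside the cell, where it pairs with beta-2 microglobulin (B2m) and returns IgG and albumin from endosomes to the surface.

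Values are FPKM, fragment numbers corrected for gene length and for the sample's total, so that levels can be set side by side between genes. A change is the log2 fold change of FPKM + 1 with its standard error (SE), a gene passed at a Benjamini-Hochberg adjusted p below 0.05 in limma across all genes tested, and each of the 3 comparisons was fitted on its own 12 samples. The read depth behind an FPKM value is unknown, hence no counting interval is given. In whole-culture RNA such as this, fewer cells of a type and less RNA per cell cannot be told apart.

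Samples of a group did not all lie close together. Over the 10751 genes that averaged 1 FPKM or more, the correlation between samples of the same group was 0.938 to 0.995 in NC, 0.888 to 0.995 in COM and 0.989 to 0.995 in COM+Met. NC-5 and NC-6 differed from the other NC samples, and COM-4, COM-5 and COM-6 from COM-1, COM-2 and COM-3, also in several of the receptors. The labels give no batch or date, and results that rest on these samples are given with and without them. All 12 macrophage markers listed, including Csf1r, Cd68 and Adgre1, were above 1 FPKM in every sample. Their summed level was 15483 to 19217 FPKM in NC, 12471 to 18660 in COM and 17065 to 22768 in COM+Met. Lyz2 and Ctsd, with means of 11610 and 3320 FPKM in NC, made up most of it. The markers did not hold steady: 3 were higher and 3 lower in COM against NC, beside 12.7% and 40.6% of all genes. After scaling each sample by median-of-ratios size factors, 6 were higher and 2 lower, and 49.8% of all genes that passed were higher. Adgre1 rose from 112 to 577 FPKM (log2 fold change 2.36) and Mrc1 fell from 79.9 to 3.26 (-4.29).

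Of the 6 members, 4 lie on mouse chromosome 1. On GRCm38 in the GENCODE M21 annotation, Fcgr2b is at chr1:170958617-170976547 (minus strand), Fcgr4 at chr1:171018920-171029761 (plus strand), Fcgr3 at chr1:171051174-171064935 (minus strand) and Fcer1g at chr1:171229572-171234365 (minus strand), a span of 276 kb. Fcgr1 is on another chromosome, at chr3:96282909-96293969 (minus strand), and Fcgrt at chr7:45092990-45103851 (minus strand). These positions are from the annotation and not from the deposited table, which holds no coordinates.

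The sequences just before the start of Fcgr1 and Fcgr4 are shown because these activating receptors had the largest rises of the family in COM. They are the 250 bases before the RefSeq start (GRCm38.p6), written 5′ to 3′ along the gene, with motif matches in capitals. The letters searched, on both strands of the 250 bases before and the 50 bases after each start, were TTCNNNGAA (GAS, bound by STAT factors), GAAANNGAA (a core of the interferon-stimulated response element, ISRE) and GAGGAAGT (bound by PU.1, the master factor of macrophages). In Fcgr1, at chr3:96293970-96294219, the capitals mark a GAS match from base -109 to -101 before the start. In Fcgr4, at chr1:171018676-171018925, they mark an ISRE match from -73 to -65 and a PU.1 match on the opposite strand from -24 to -17.
Fcgr1: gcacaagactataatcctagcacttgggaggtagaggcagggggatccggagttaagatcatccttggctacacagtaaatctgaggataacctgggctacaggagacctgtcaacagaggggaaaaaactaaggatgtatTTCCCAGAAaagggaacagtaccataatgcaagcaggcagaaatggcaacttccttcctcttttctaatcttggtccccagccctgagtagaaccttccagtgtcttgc
Fcgr4: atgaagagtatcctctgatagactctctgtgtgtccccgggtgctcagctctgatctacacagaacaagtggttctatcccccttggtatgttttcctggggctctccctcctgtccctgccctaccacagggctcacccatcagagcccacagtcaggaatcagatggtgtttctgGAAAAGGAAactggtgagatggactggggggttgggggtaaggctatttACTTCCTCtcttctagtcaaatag
All 6 members had an entry in the promoter table, with 7 windows in all, and no other window of a member held any of these letters. Among 32851 promoter windows of the same length, 8.30% held the GAS letters, 8.56% the ISRE letters and 3.20% the PU.1 letters. A match describes these letters only.

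Fcgr2b and Fcgr3 share coding sequence, which matters for their values because reads from a shared stretch cannot be assigned by sequence. Of 1733 windows of 50 bases in the transcripts of Fcgr3, 166 (9.58%) also occur in Fcgr2b, and these are 2.92% of the 5685 windows of Fcgr2b. The longest run, 129 bases of coding sequence in both genes, is the following, in lower case throughout since no base differs.
Fcgr2b and Fcgr3: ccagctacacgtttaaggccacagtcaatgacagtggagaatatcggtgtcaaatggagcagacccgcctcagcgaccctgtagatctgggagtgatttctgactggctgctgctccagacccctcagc
How such reads were counted is not given in the sources used here, so the values of this pair are uncertain to that extent. The transcripts of Fcgr1, Fcgr4, Fcer1g and Fcgrt share no such window with any other gene. Antisense gene models overlap Fcgr2b (Gm38204) and Fcgrt (Gm45669), and whether strand was used in the counting is not given either.

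The first question was how the receptors of BMDMs differed when the TECs below had met COM crystals. The activating receptors Fcgr1 and Fcgr4, the common chain Fcer1g and the inhibitory receptor Fcgr2b rose in COM against NC, whereas the activating receptor Fcgr3 and the neonatal receptor Fcgrt fell. All 6 members passed, 4 higher and 2 lower, each by at least 2-fold. Of the 10900 genes tested, 12.7% were higher and 40.6% lower, with a median change of -0.27 on the log2 scale. The NC and COM ranges did not overlap for 5 of the 6 members and for 4169 of these 10900 genes. The members were chosen with earlier results of these data known, so these values over all genes are set beside them as a description only. With median-of-ratios size factors the median change of all genes was 0.0048 in place of -0.27, and 49.8% of the genes that passed were higher, against 23.8% with the values as deposited. The 6 members passed in the same direction under these size factors, under quantile normalisation and after rescaling to the same sum.

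**Figure D1:**
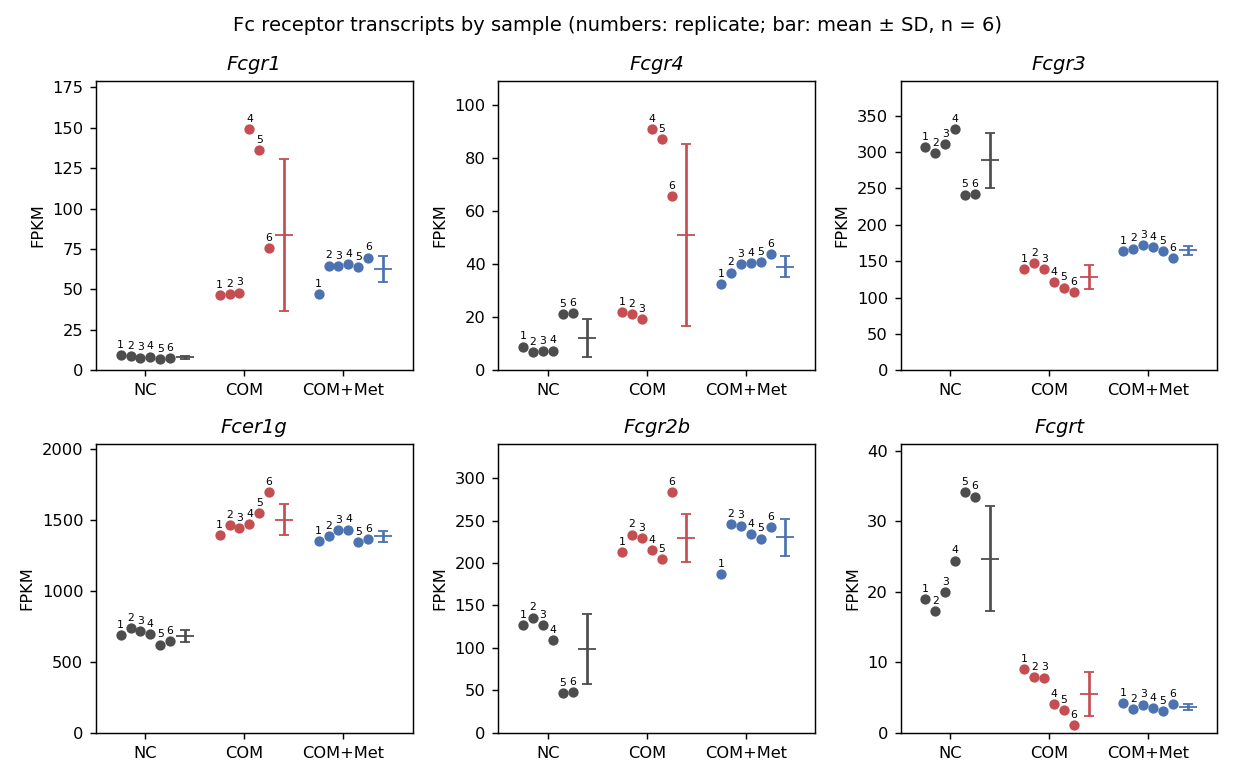
FPKM of each Fc receptor gene (linear axis from 0) in the 18 samples, with the replicate number above each point and the group mean ± SD (n = 6) beside the points. Fcgr1, Fcgr4, Fcer1g and Fcgr2b are higher and Fcgr3 and Fcgrt lower in COM than in NC, and Fcgr1 and Fcgr4 are each split in COM between samples 1 to 3 and samples 4 to 6.

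Fcgr1, the high-affinity receptor that binds even single IgG molecules, changed most. It ranged from 6.93 to 9.17 FPKM in NC (median 8.16), from 46.6 to 149 in COM (median 61.7) and from 47.1 to 69.6 in COM+Met (median 64.5). No COM sample came near the NC range, but the COM samples themselves fell apart: COM-1, COM-2 and COM-3 were at 46.6, 47.1 and 48.0 FPKM, and COM-4, COM-5 and COM-6 at 149, 136 and 75.4. The mean was 8.05 ± 0.829 FPKM in NC and 83.7 ± 47.1 in COM (SD, n = 6), a 10.4-fold difference of means. The log2 fold change was 3.05 (SE 0.29, adjusted p = 3.52e-06), and 0.991% of the genes tested rose by more. By level Fcgr1 moved from rank 6310 to rank 715 of the genes tested.

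Fcgr4, the activating receptor found on monocytes, macrophages and neutrophils of mice, rose as well, with more scatter in both groups. It ranged from 6.83 to 21.4 FPKM in NC (median 8.15), from 19.2 to 90.8 in COM (median 43.7) and from 32.4 to 43.8 in COM+Met (median 40.2). NC and COM overlapped, because NC-5 and NC-6 (21.2 and 21.4) were as high as COM-1, COM-2 and COM-3 (21.8, 21.2 and 19.2), whereas the other 4 NC samples did not exceed 8.88 FPKM. The mean rose 4.19-fold, from 12.2 ± 7.14 to 51.0 ± 34.2 FPKM (SD, n = 6), with a log2 fold change of 1.84 (SE 0.47, adjusted p = 0.00534). Without COM-4, COM-5 and COM-6 the change was 0.88 and no longer passed (adjusted p = 0.0753), so the call for Fcgr4 rested on these 3 samples.

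Fcgr3, the activating receptor of low affinity and the most abundant IgG receptor of the NC cells, went the other way. It ranged from 241 to 332 FPKM in NC (median 303), from 108 to 148 in COM (median 130) and from 154 to 172 in COM+Met (median 166). Every COM sample was below every NC sample. The mean fell from 289 ± 37.9 to 128 ± 16.0 FPKM (SD, n = 6), so that NC was 2.25-fold higher, and the log2 fold change was -1.16 (SE 0.12, adjusted p = 9.03e-06). Of the genes tested, 8.92% fell by more. The activating receptors of these macrophages therefore did not move as a block.

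Fcer1g, the chain that all 3 activating receptors need, was the most abundant member in each group and the most even. It ranged from 623 to 737 FPKM in NC (median 693), from 1395 to 1698 in COM (median 1467) and from 1345 to 1433 in COM+Met (median 1377). The groups NC and COM lay far apart. The mean rose 2.19-fold, from 685 ± 43.3 to 1504 ± 107 FPKM (SD, n = 6), with a log2 fold change of 1.13 (SE 0.10, adjusted p = 2.73e-06). Its rank by level went from 59 to 22 of the genes tested.

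Fcgr2b, the inhibitory receptor, rose by about as much as Fcer1g. It ranged from 46.4 to 136 FPKM in NC (median 118), from 204 to 284 in COM (median 222) and from 187 to 246 in COM+Met (median 238). The lowest COM sample was above the highest NC sample, and within NC the samples NC-5 and NC-6 (46.4 and 48.1) were far below the other 4 (109 to 136). The mean rose 2.32-fold, from 98.9 ± 40.9 to 229.7 ± 28.5 FPKM (SD, n = 6), with a log2 fold change of 1.33 (SE 0.28, adjusted p = 0.00149). Leaving out NC-5 and NC-6 together changed no call of any member, and the change of Fcgr2b was then 0.87.

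Fcgrt, the neonatal receptor, fell most. It ranged from 17.3 to 34.2 FPKM in NC (median 22.2), from 1.14 to 9.07 in COM (median 5.94) and from 3.14 to 4.20 in COM+Met (median 3.76). NC and COM did not overlap, and COM was again split, with 7.84 to 9.07 FPKM in COM-1, COM-2 and COM-3 and 1.14 to 4.04 in the other 3. The mean was 24.7 ± 7.47 FPKM in NC and 5.53 ± 3.16 in COM (SD, n = 6), so that NC was 4.47-fold higher, and the log2 fold change was -2.11 (SE 0.35, adjusted p = 0.0003). Its partner B2m, which also serves MHC class I, rose from 1032 to 6153 FPKM (log2 fold change 2.46, adjusted p = 2.01e-05), and the chains of this heterodimer thus changed in opposite directions.

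The order of the receptors changed with these shifts. In NC it ran Fcer1g, Fcgr3, Fcgr2b and Fcgrt, followed by Fcgr4 and Fcgr1, which could not be ordered because Fcgr1 was above Fcgr4 in 4 of 6 samples. In COM it ran Fcer1g, Fcgr2b, Fcgr3, Fcgr1, Fcgr4 and Fcgrt. Here Fcgr3 and Fcgr1 were the only neighbours whose order differed between samples, with Fcgr1 above Fcgr3 in 2 of 6. Fcgr3 exceeded Fcgr2b in 6 of 6 NC samples, and Fcgr2b exceeded Fcgr3 in 6 of 6 COM and 6 of 6 COM+Met samples.

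To set activating against inhibitory receptors within each sample, ratios of FPKM were taken, which do not depend on how a sample is scaled. They are described without a test. The ratio of Fcgr3 to Fcgr2b had a median of 2.74 in NC (2.20 to 5.20), 0.586 in COM (0.380 to 0.652) and 0.711 in COM+Met (0.638 to 0.875). NC lay wholly above 1 and the other groups wholly below. The ratio of Fcgr1 to Fcgr2b moved upwards, from a median of 0.0749 in NC (0.0617 to 0.153) to 0.242 in COM (0.202 to 0.694) and 0.271 in COM+Met (0.252 to 0.288).

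For Fcgr4 to Fcgr2b the median was 0.0690 in NC, 0.167 in COM and 0.173 in COM+Met, but the NC range of 0.0503 to 0.457 spanned the whole COM range of 0.0839 to 0.426. The difference of mean log2 ratios between COM and NC was -0.36 without COM-4, COM-5 and COM-6, opposite in sign to that over all samples. With the 3 activating receptors summed, the ratio to Fcgr2b was 2.87 in NC (2.31 to 5.81), 0.950 in COM (0.877 to 1.68) and 1.15 in COM+Met (1.09 to 1.30). Every NC sample was above every other sample. The activating transcripts were thus lower relative to Fcgr2b in COM and COM+Met than in NC, although Fcgr1 and Fcgr4 had risen. In COM their sum exceeded Fcgr2b only in COM-4 and COM-5 (1.68 and 1.65). Fcer1g exceeded the activating receptors it serves by 2.26-fold in NC (2.0 to 2.39), 6.75-fold in COM (4.07 to 7.02) and 5.17-fold in COM+Met (5.01 to 5.57).

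**Figure D2:**
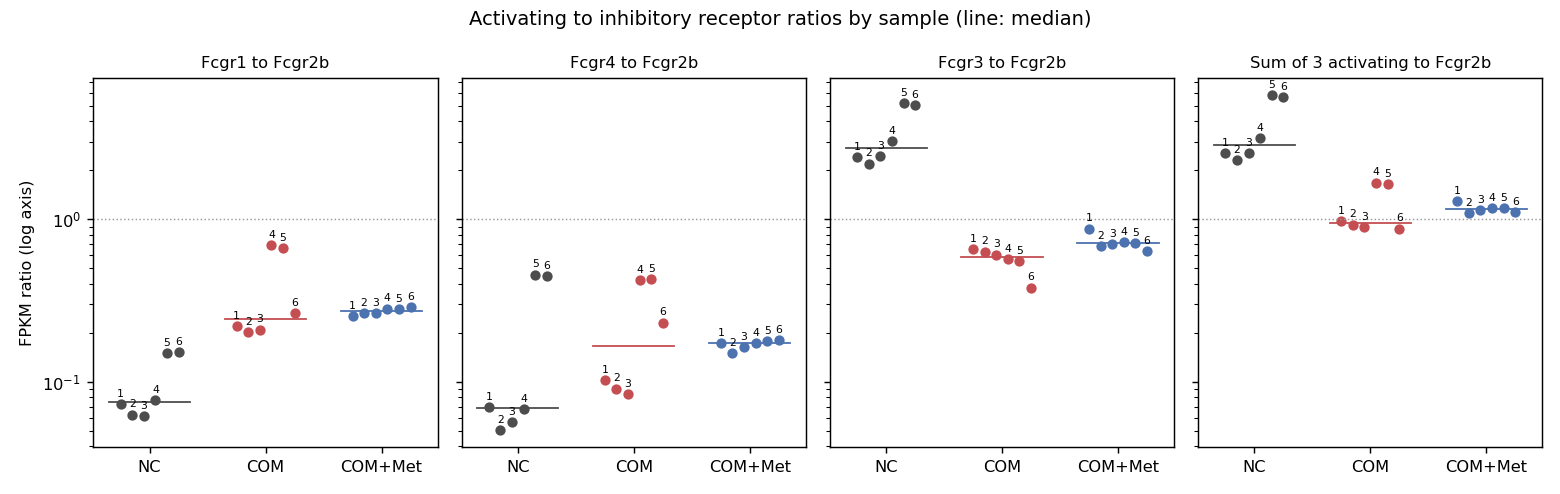
Ratio of the FPKM of activating receptors to that of the inhibitory receptor Fcgr2b in each sample (log axis), with replicate numbers, group medians as lines and a dotted line at a ratio of 1. The ratios with Fcgr1 are lower in NC than in COM and COM+Met, the ratios with Fcgr3 and with the sum are higher in NC, and those with Fcgr4 overlap.

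The make-up of the 4 classical IgG receptors shows the same values as parts of a whole. Their summed level was 408 ± 70.0 FPKM in NC, 492 ± 65.5 in COM and 497 ± 33.7 in COM+Met (SD, n = 6), with overlapping ranges of 316 to 457 and 420 to 576 for NC and COM. Of this sum, Fcgr3 held 71.3% ± 4.26 in NC, 26.7% ± 6.50 in COM and 33.3% ± 2.54 in COM+Met. Fcgr2b held 23.3% ± 6.85, 47.3% ± 7.59 and 46.3% ± 1.55. Fcgr1 went from 2.0% ± 0.218 in NC to 16.3% ± 7.25 in COM and 12.6% ± 0.898 in COM+Met. Fcgr4 went from 3.35% ± 2.61 to 9.75% ± 5.62 and 7.85% ± 0.510. Fcgr3 was thus the largest part of the mixture in NC and Fcgr2b in COM and COM+Met.

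**Figure D3:**
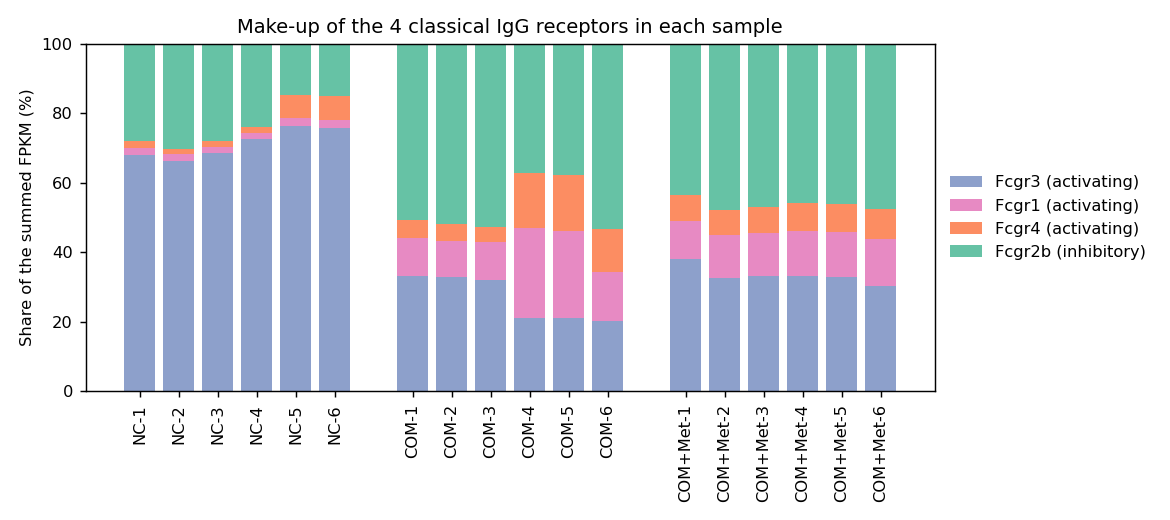
Share (%) of each of the 4 classical IgG receptors in their summed FPKM, 1 bar per sample. Fcgr3 is the largest part in each NC bar (66.4% to 76.4%) and Fcgr2b in each COM and COM+Met bar (37.3% to 53.3% in COM and 43.5% to 47.8% in COM+Met).

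The second question was whether Met changed the receptors of BMDMs above COM-exposed TECs. Fcgr3 rose in COM+Met against COM, and the other 5 members did not pass. Across all 10364 genes tested, 5.77% were higher and 7.58% lower, with a median change of 0.0033. Every COM+Met sample was above every COM sample for Fcgr3 (154 to 172 against 108 to 148 FPKM), with means of 165 ± 6.23 and 128 ± 16.0 (SD, n = 6), a 1.29-fold difference. The ranges of these groups did not overlap for 1157 of the 10364 genes. For Fcgr3 the log2 fold change was 0.37 (SE 0.093, adjusted p = 0.0194). It did not pass without COM+Met-3 (adjusted p = 0.0511), although its size of 0.36 was nearly the same.

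The intervals of the members that did not pass were of very different widths. For Fcgr2b the change was 0.0057 (95% confidence interval -0.22 to 0.23, adjusted p = 0.977) and for Fcer1g -0.12 (-0.30 to 0.069, adjusted p = 0.401), which leaves room for small changes only. For Fcgr1 it was -0.25 (-0.88 to 0.39, adjusted p = 0.620), for Fcgr4 -0.076 (-0.92 to 0.77, adjusted p = 0.919) and for Fcgrt -0.29 (-0.98 to 0.40, adjusted p = 0.588). The intervals of these 3 genes are wide and leave room for sizeable changes in either direction.

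The direction of Fcgr1, Fcgr4 and Fcgrt depended on which COM samples were kept, a split seen in the data and not among the groups of the study. Without COM-4, COM-5 and COM-6, Fcgr1 was higher in COM+Met (0.39, adjusted p = 0.00558), Fcgr4 was higher (0.88, adjusted p = 3.54e-06) and Fcgrt was lower (-0.98, adjusted p = 1.81e-06). Without COM-1, COM-2 and COM-3, Fcgr1 was lower (-0.88, adjusted p = 0.0160), Fcgr4 was lower (-1.03, adjusted p = 0.000787) and Fcgrt did not pass (0.39, adjusted p = 0.217). The COM+Met samples lay between these parts of the COM group for Fcgr4 and, except for COM+Met-1, for Fcgr1. Fcgr3 was higher in COM+Met in both cases.

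**Figure D4:**
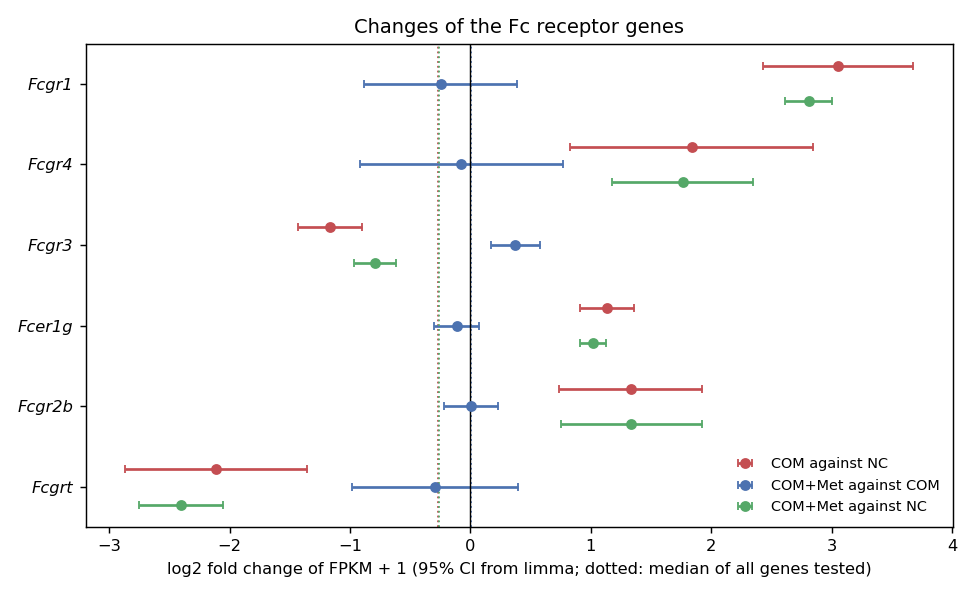
Log2 fold change of FPKM + 1 (points) with its 95% confidence interval (bars) for each member in the 3 comparisons, with the median change of all genes tested as dotted lines. The COM and COM+Met groups each differ from NC in all members, and in COM+Met against COM only the interval of Fcgr3 (0.17 to 0.57) leaves out 0.

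Against NC, the COM+Met samples gave the same 4 rises and 2 falls as COM did, with the NC samples shared between these comparisons. Of 10786 genes, 19.3% were higher and 55.9% lower, with a median change of -0.26. Of the genes that passed, 25.6% were higher, and 50.9% with size factors. Fcgr1 was 7.77-fold higher in COM+Met than in NC (log2 fold change 2.81, SE 0.091, adjusted p = 3.73e-11), Fcgr4 3.21-fold (1.76, SE 0.27, adjusted p = 6.11e-05), Fcgr2b 2.33-fold (1.34, SE 0.27, adjusted p = 0.000568) and Fcer1g 2.02-fold (1.02, SE 0.051, adjusted p = 1.74e-09). Fcgr3 was 1.75-fold lower (-0.79, SE 0.080, adjusted p = 1.25e-06) and Fcgrt 6.66-fold lower (-2.40, SE 0.16, adjusted p = 2.23e-08). The COM+Met and NC ranges of Fcgr4 did not overlap, as those of 6218 of the 10786 genes did not. The COM+Met samples were more uniform than the COM samples: the SD of Fcgr1 was 12.6% of the mean there and 56.2% in COM, beside 10.3% in NC, and that of Fcgr4 was 10.1% and 67.2%, beside 58.7% in NC.

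Fcgr4 and Fcgr3 are neighbours on chromosome 1 and changed in opposite directions, as did Fcgr3 and Fcgr2b. Between Fcgr2b and Fcer1g lie 7 other protein-coding genes, of which 2 were expressed enough to be tested. Sdhc, a subunit of succinate dehydrogenase, fell from 27.3 to 19.9 FPKM in COM against NC (log2 fold change -0.49, adjusted p = 0.0384), a call lost with size factors (adjusted p = 0.270), with quantile normalisation (0.0627), without NC-5 and NC-6 (0.150) and without COM-4, COM-5 and COM-6 (0.0899). Tomm40l, a mitochondrial outer membrane protein, was at 3.92 and 2.79 FPKM and did not pass (-0.42, adjusted p = 0.0995). Neither differed by 2-fold.

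Receptors for other antibodies were mostly silent. Of 14 listed immunoglobulin receptors outside the family, 10 were below 1 FPKM in every sample, among them the IgE receptor chains Fcer1a and Ms4a2, the IgM receptor Fcmr and the polymeric receptor Pigr. Only 3 were tested in COM against NC. Trim21, which binds antibodies in the cytosol, rose from 6.45 to 24.1 FPKM (log2 fold change 1.61, adjusted p = 0.000409) and was at 29.2 FPKM in COM+Met. Fcrls fell from 1.80 to 0.354 FPKM (-0.94, adjusted p = 0.00835), and Fcrlb did not pass (3.94 and 5.72 FPKM, adjusted p = 0.238).

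Fcer1g also serves receptors that do not bind antibodies, and these moved in both directions. Of 7 tested in COM against NC, 2 were higher, 3 lower and 2 did not pass, with a median of 0.067. Among all genes tested, 12.7% were higher and 40.6% lower, with a median of -0.27. Clec4e (Mincle), which recognises glycolipids and products of dead cells, rose from 233 to 1978 FPKM (log2 fold change 3.30, adjusted p = 1.6e-05), and its partner Clec4d from 258 to 529 (1.11, adjusted p = 0.000843). Pira2 fell from 75.7 to 22.5 FPKM (-1.82, adjusted p = 6.45e-05) and Lilra6 from 11.8 to 2.55 (-1.88, adjusted p = 7.6e-06), although these belong to a family of near-identical genes and are uncertain. In COM+Met against COM, 3 of 8 were lower and the other 5 did not pass. Among all genes tested, 5.77% were higher and 7.58% lower. Clec4n (Dectin-2) was 1 of the 3 and fell from 686 to 335 FPKM (-0.96, adjusted p = 0.0109).

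Downstream of the ITAM, genes moved in both directions. Among 29 genes of activating signalling tested in COM against NC, 7 were higher, 14 lower and 8 did not pass, with a median of -0.42, beside 12.7% higher, 40.6% lower and a median of -0.27 over all genes tested. Falls outnumbered rises among all genes too, and with size factors the counts in the list were 9 higher and 8 lower. Syk, the kinase that docks to the phosphorylated ITAM, rose from 113 to 158 FPKM (log2 fold change 0.46, adjusted p = 0.0119) and was at 187 FPKM in COM+Met. Its rise did not pass without NC-5 and NC-6 (adjusted p = 0.0578) or without COM-1, COM-2 and COM-3 (adjusted p = 0.0515). Blnk, a scaffold for Syk signalling, rose from 3.81 to 36.6 FPKM (3.08, adjusted p = 2.97e-06) and the kinase Src from 6.02 to 26.0 (2.09, adjusted p = 0.00264).

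The exchange factors Vav2 and Vav3 fell from 13.4 to 4.85 FPKM (log2 fold change -1.27, adjusted p = 0.000203) and from 7.10 to 3.05 (-1.05, adjusted p = 0.000227). Tyrobp (DAP12), the ITAM adaptor of other receptors, fell from 768 to 444 FPKM (-0.89, adjusted p = 0.0121), in the opposite direction to Fcer1g. In COM+Met against COM, 1 of 29 was higher and 4 lower, beside 5.77% higher and 7.58% lower over all genes. Without COM-4, COM-5 and COM-6 the counts in the list were 6 and 16. Far more of all genes passed then as well, and whether the list went beyond them was not tested. Of the Src family kinases that phosphorylate ITAMs, Fgr fell from 58.8 to 24.8 FPKM (-1.14, adjusted p = 0.00279) and Lyn from 47.0 to 34.2 (-0.45, adjusted p = 0.00218), while the adaptor Lat rose from 0.676 to 1.67 (0.68, adjusted p = 0.00431).

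On the inhibitory side, the phosphatase that Fcgr2b recruits fell. Of 13 genes of inhibitory signalling tested in COM against NC, 1 was higher, 5 lower and 7 did not pass, with a median of -0.031, against the same shares of all genes, and with size factors 4 were higher and 3 lower. Inpp5d (SHIP-1), the lipid phosphatase recruited by Fcgr2b, fell from 53.7 to 35.5 FPKM (log2 fold change -0.59, adjusted p = 0.000642), and was at 28.9 FPKM in COM+Met (against COM -0.28, adjusted p = 0.0743, and 0.0169 with size factors). Ptpn6 (SHP-1) was at 199 and 177 FPKM and did not pass (-0.17, adjusted p = 0.207). The adaptor Dok3 fell from 62.6 to 28.4 FPKM (-1.32, adjusted p = 0.0124, and 0.0532 without NC-5 and NC-6), whereas Cblb, a ubiquitin ligase that limits kinase signalling, rose from 3.63 to 7.90 (0.94, adjusted p = 2.47e-05) and then was lower in COM+Met at 5.64 (-0.41, adjusted p = 0.0155).

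Other receptors with an ITIM, in a list that does not hold Fcgr2b, were divided. Of 17 tested in COM against NC, 7 were higher, 5 lower and 5 did not pass, with a median of -0.024. Among all genes tested, 12.7% were higher and 40.6% lower, with a median of -0.27. The sialic acid receptor Siglece rose from 4.21 to 54.6 FPKM (log2 fold change 3.40, adjusted p = 4.28e-08) and Cd72 from 1.65 to 23.5 (2.87, adjusted p = 0.000908). Cd300a, which binds lipids of dying cells, fell from 45.4 to 4.40 FPKM (-3.05, adjusted p = 4.14e-07). Pirb was at 113 and 110 FPKM and did not pass (-0.024, adjusted p = 0.887). In COM+Met against COM, 5 were lower and 12 did not pass, beside 5.77% higher and 7.58% lower over all genes. In the list, 8 were lower and 3 higher without COM-4, COM-5 and COM-6. Without COM-1, COM-2 and COM-3, 8 were lower and 9 did not pass. More of all genes passed in both of these settings too, and whether the list went beyond them was not tested. With all samples, Clec4a2 fell from 40.0 to 7.05 FPKM (-2.12, adjusted p = 0.002) and Siglec1 from 31.0 to 13.7 (-1.05, adjusted p = 0.00366).

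Genes of phagocytosis and actin, the machinery that engulfs a particle bound by Fc receptors, were lower about as often as all genes. Of 38 tested in COM against NC, 2 were higher, 17 lower and 19 did not pass, with a median of -0.35, beside 12.7% higher and 40.6% lower over all genes, and with size factors 6 were higher and 6 lower. The rises were Marcksl1, from 85.9 to 259 FPKM (log2 fold change 1.83, adjusted p = 0.00227), and the GTPase Rac2, from 93.4 to 194 (1.02, adjusted p = 0.000113). Elmo1, part of an activator of Rac, fell from 15.7 to 5.58 FPKM (-1.35, adjusted p = 1.48e-06) and the actin-severing gelsolin, Gsn, from 238 to 110 (-1.21, adjusted p = 0.00455). In COM+Met against COM, 4 were lower and 34 did not pass, beside 5.77% higher and 7.58% lower over all genes. Arpc2, a subunit of the actin-nucleating Arp complex, fell from 377 to 276 FPKM (-0.44, adjusted p = 0.0167, and 0.0695 without COM-1, COM-2 and COM-3). Without COM-4, COM-5 and COM-6, 31 of 38 were lower and 2 higher, so the number of calls rested on those samples. Far more of all genes passed in this setting as well, and whether the increase in this list went beyond theirs was not tested.

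**Figure D5:**
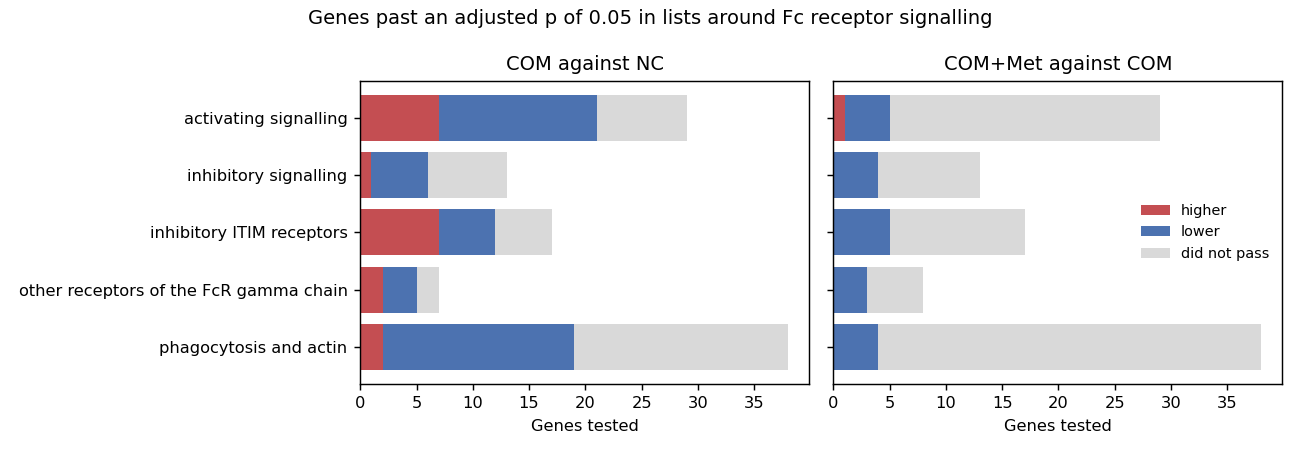
Number of genes tested in 5 lists around Fc receptors that were higher, lower or did not pass, with COM against NC on the left and COM+Met against COM on the right. In COM against NC lower genes outnumber higher ones in the lists of activating signalling (14 and 7), inhibitory signalling (5 and 1) and phagocytosis and actin (17 and 2), as they do among all genes tested (40.6% lower and 12.7% higher), and not with size factors (8 and 9, 3 and 4, 6 and 6).

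The genes most like each member were found by Pearson's r of log2(FPKM + 1) over the 18 samples, among 10751 genes. The samples form groups of very different level, so r describes a shared pattern over these samples and has no test. Fcgr1 was most like Slfn4 (r = 0.987) and Pnp (0.986), and the next was a gene model without an Ensembl identifier (0.986). Fcgr4 was most like Trim25 (0.975), Nod1 (0.964) and Cd200 (0.963), Fcgr2b like Rnf149 (0.984), Dyrk2 (0.981) and Il6 (0.979), and Fcer1g like Ms4a6d (0.996), Rasgrp1 (0.995) and Siglece (0.994). Fcgr3 was most like Amz1 (0.983), Fam84b (0.974) and Rpl5 (0.973), and Fcgrt like Coro1c (0.994), Cd9 (0.993) and Lmna (0.993). Of these, the genes beside Fcgr3 and Fcgrt had lower means in COM than in NC, as Fcgr3 and Fcgrt did. That follows from choosing them by r over these same samples.

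Other blood cells also carry these receptors, so their markers were measured beside them. B cells express Fcgr2b, and their markers Cd79a, Cd79b, Ms4a1 and Pax5 were below 1 FPKM in every sample. Cd22, in contrast, was at 4.63 to 6.24 FPKM in NC and 2.95 to 4.22 in COM (log2 fold change -0.55, adjusted p = 0.000798). Its call was lost with size factors (-0.29, adjusted p = 0.0591) and with quantile normalisation (-0.24, adjusted p = 0.122). Mast cells carry Fcgr3 and Fcer1g, and 5 of 11 mast cell and basophil markers, including Fcer1a and Ms4a2, were below 1 FPKM throughout, with sums of 15.2 to 28.9 FPKM in NC, 4.64 to 6.27 in COM and 2.62 to 3.65 in COM+Met. Of 4 tested in COM against NC, 1 was higher, 2 lower and 1 did not pass, beside 12.7% higher and 40.6% lower over all genes. The protease Cpa3 fell from 10.6 to 0.302 FPKM (log2 fold change -3.10, adjusted p = 7.47e-07). The receptor Kit rose from 0.875 to 1.85 FPKM (0.56, adjusted p = 0.0387, and 0.170 without NC-5 and NC-6). NK cell markers summed to at most 3.59 FPKM in any sample, and 7 of 10, including Ncr1, stayed below 1.

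Neutrophils carry Fcgr3 and Fcgr4, and their markers did not move together. The sum of 17 neutrophil markers was 553 to 1078 FPKM in NC, 1238 to 1866 in COM and 738 to 860 in COM+Met, but its rise in COM was mostly that of Lcn2 (lipocalin-2), from 23.5 to 1133 FPKM (log2 fold change 5.57, adjusted p = 2.89e-07). S100a9 fell from 171 to 8.43 FPKM (-4.58, adjusted p = 1.14e-05) and Ngp from 30.9 to 1.60 (-3.70, adjusted p = 1.18e-05). S100a8 was at 254 and 169 FPKM and did not pass (-1.13, adjusted p = 0.105). Of 10 tested in COM against NC, 2 were higher and 4 lower (median -0.92), beside 12.7% and 40.6% of all genes. The other 4 did not pass. Without COM-1, COM-2 and COM-3, 1 was higher and 5 lower, with a median of -1.31. Without COM-4, COM-5 and COM-6, 3 were higher and 4 lower, with a median of -0.11. With size factors and all samples, 3 were higher and 4 lower, with a median of -0.60. Of the 17, Mpo, Ly6g and Retnlg (3 genes) were below 1 FPKM in every sample. Others were expressed, such as Mmp8 at 336, 175 and 68.7 FPKM in NC, COM and COM+Met. Csf3r was at 9.68, 12.6 and 10.7 FPKM.

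The sum of 10 dendritic cell markers was 55.6 to 115 FPKM in NC, 333 to 1731 in COM and 1216 to 1499 in COM+Met. It was largely Bst2, an interferon-inducible gene that macrophages express as well, at 45.2, 813 and 1258 FPKM. Xcr1, Siglech, Cd209a and Ccr9 were below 1 FPKM in every sample. Of 6 tested in COM against NC, 3 were higher and 3 did not pass, beside 12.7% higher over all genes. The 3 were Bst2, Flt3 (0.370 to 2.49 FPKM, adjusted p = 0.00153) and Irf8 (35.6 to 68.0 FPKM). Irf8 did not pass without NC-5 and NC-6 (adjusted p = 0.0806) or without COM-1, COM-2 and COM-3 (adjusted p = 0.192). Without COM-4, COM-5 and COM-6, 5 were higher. Without COM-1, COM-2 and COM-3, 1 was higher and 2 lower. Of 20 tubular epithelial markers, 18 were below 1 FPKM in every sample. Their sum was 11.0 to 18.6 FPKM in NC and 0.564 to 1.50 in COM, with Cdh1 falling from 12.9 to 0.555 FPKM (log2 fold change -3.14, adjusted p = 1.62e-08). The part of such cells in the receptor values was not tested.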

How the data were processed

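TruSeq libraries were made from the total RNA of 18 BMDM samples, 6 per group, with groups taken from the sample titles. The authors deposited FPKM values of 25926 genes in 18 sample columns, and 0 columns were unmapped. FPKM falls for all other genes when abundant genes rise, and gives no depth: whole reads could not be recovered. Bowtie 0.12.2, mm8 and mm9 appear in the submitters' processing notes with no role. What computed FPKM, on which annotation and with which filters, is not given in the sources used here.

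Values were transformed to log2(FPKM + 1). Each comparison took the genes that averaged 1 FPKM or more in its 12 samples into limma 3.58.1 in R 4.3.3 (lmFit, eBayes with a trend), with Benjamini-Hochberg adjustment over all genes tested, and each step was tested on simulated data. Ratios, levels and sequence matches were computed in Python 3.11.15 (numpy 2.4.6, pandas 2.3.3, matplotlib 3.10.9), with GENCODE M21 and RefSeq windows of 250 bases before and 50 after each start. A planned search of protein sequences was not run and proteins are not analysed here.

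The 6 members and the 16 gene lists (221 genes) were chosen with earlier results of these data known. Named list genes were B2m, Trim21, Syk, Inpp5d, Ptpn6, Pirb and Tyrobp and, in each list, up to 2 largest rises and falls that passed in COM against NC and in COM+Met against COM, of which the text gives a selection. Fcrlb, Sdhc, Tomm40l and the markers were named after their values were seen. Alternatives tried were other pseudocounts (0.1, 5), no filter or one at 5 FPKM, 3 scalings, a replicate block, all 18 samples in the same fit, sample weights, and samples left out singly or in sets. The full B cell marker list is not reported here.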

Additional observations from a re-analysis of the deposited data

Results flagged for a closer look

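In the 18 sets of 6 values (6 genes in 3 groups), Dixon's test found a sample far from the rest in 2, both in COM+Met-1. Fcgr1 was 47.1 FPKM in this sample and 63.8 to 69.6 in the other COM+Met samples. Fcgr2b was 187 FPKM in it and 229 to 246 in the others. Chance alone gives about 1 such flag in 20 sets.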

How the results depend on the processing

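In COM against NC, 149 alternative values kept their direction and their side of the threshold or moved little. The exception was Fcgr4, at 0.88 (adjusted p = 0.0753) when COM-4, COM-5 and COM-6 were left out. For COM+Met against NC, 138 of 138 did so. In COM+Met against COM, 120 did so, and the rest follow. Without COM-4, COM-5 and COM-6 the log2 fold changes were 0.39 for Fcgr1, 0.88 for Fcgr4 and -0.98 for Fcgrt, and 6349 genes passed, against 1384 with all samples. Without COM-1, COM-2 and COM-3 they were -0.88 for Fcgr1, -1.03 for Fcgr4, -0.016 for Fcgr2b and 0.39 for Fcgrt, and 2439 genes passed. With sample weights they were 0.37 for Fcgr1, 0.83 for Fcgr4 and -0.94 for Fcgrt, and 6680 genes passed. Rescaled to the same sum, Fcgr2b was at -0.040. The log2 ratio of Fcgr1 to Fcgr2b changed by 0.37 and -0.87 without COM-4 to COM-6 and without COM-1 to COM-3, and that of Fcgr4 to Fcgr2b by 0.88 and -1.03. Leaving out single samples gave -0.026 to 0.068 for Fcgr2b, -0.29 to 0.15 for Fcgr4 and 0.32 to 0.42 for Fcgr3, which alone lost its call, without COM+Met-3. It gave 943 to 2753 genes that passed, the most without COM-6. The cause was not tested. With a filter at 5 FPKM, Fcgrt gave no value in this comparison.

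Samples that share a number did not deviate together: their correlation was -0.114 to -0.0263 for COM and NC, -0.222 to 0.0337 for COM+Met and COM, and -0.106 to 0.0569 for COM+Met and NC, and 0, 0 and 1 of 6 samples correlated best with their own number. The numbers thus pair no samples. With a replicate block, Fcgr3 in COM+Met against COM was at 0.37 (limma, adjusted p = 0.0727) and 744 genes passed in place of 1384, while it changed no other call of a member. Counts in the gene lists under other scalings and without these samples were added after the data had been seen. Unknown depth limits all low values, Fcgrt in COM and COM+Met most.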
